A study of Mus musculus with 15 samples.

Results

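Sqle, Lss, Cyp51, Tm7sf2, Msmo1, Nsdhl, Hsd17b7, Sc5d and Dhcr7 encode enzymes of the post-squalene arm of cholesterol synthesis, which turns squalene into cholesterol. The 9 genes were taken by symbol, each as the sum of its transcripts, from 35540 gene symbols in the table, and all 9 were among the 13916 genes that passed the filter on low counts. They were chosen from earlier results of these data in which cholesterol genes stood high in C247S KI livers. Their levels in C247S KI livers are therefore a description, with counts of calls beside those over all genes and no p. KO livers were tested against WT, but the WT livers entered that choice as well, so this test is not fully independent of it. The list has no threshold, and every member had at least 78 estimated counts in each library, so that no member passed the filter through 1 group alone.

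Bulk liver RNA of mice was sequenced as 15 libraries, 5 from Txnip knockout mice (KO), 5 from mice with the C247S change in TXNIP (C247S KI) and 5 from wild-type mice (WT). All 3 groups had been on a high-fat diet for 8 weeks. TXNIP is the thioredoxin-interacting protein, an arrestin-like protein that binds thioredoxin and restrains glucose uptake, and the C247S change puts a serine in place of a cysteine. The labels give neither the knockout allele, nor any promoter or Cre, nor the strain, sex or age of the mice, the time of day of collection or whether a library stands for 1 animal. A p-value here sets the difference between groups against how far libraries of a group lie apart.

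Cholesterol synthesis builds squalene from acetyl-CoA through mevalonate, closes squalene into the first sterol, lanosterol, and then removes methyl groups and moves double bonds until cholesterol is reached. The liver makes cholesterol for membranes, lipoproteins and bile acids. Transcription of these enzymes is raised by SREBP2, a membrane-bound factor that SCAP carries to the Golgi when endoplasmic reticulum sterol is low and that the INSIG proteins hold back when sterol is plentiful. Liver also makes cholesterol in a daily rhythm.

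The post-squalene genes stood highest in C247S KI livers and lowest, for most of them, in KO livers. All 9 had a higher mean in C247S KI than in WT livers, by 1.24-fold for Sc5d to 6.50-fold for Sqle. In KO livers Dhcr7, the last reductase of the arm, fell against WT, while Tm7sf2, the reductase that follows Cyp51, rose, and the other 7 did not pass the test; neither call held without the 4 libraries that lay farthest out on the second principal component. Tm7sf2 also differed from the rest in KO against C247S KI, where its log2 difference was -0.28 and those of the other 8 were -0.92 to -3.33, a description since the C247S KI livers led to the list.

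Library totals were 18047577 to 23379940 estimated counts. Txnip averaged 99 ± 24.9 CPM (counts scaled to library size) in KO, 192 ± 65.7 in C247S KI and 222 ± 56.2 in WT livers (SD, n = 5 each). It fell in KO against WT with a log2 difference of -1.17 (SE 0.24, edgeR adjusted p = 0.00887), with exact permutation p = 0.00794, the smallest that 5 against 5 libraries allow. The labels do not say which part of Txnip was deleted, and C247S KI 3, at 99.9 CPM, lay within the range of the KO libraries. C247S KI 3 also differed most from the others of its group in the counts of all genes. On the first 2 principal components of all genes, which hold 23.6% and 15.6% of the variance, the KO libraries lay apart on the first, and KO 5, C247S KI 5, WT 1 and WT 4 lay farthest out on the second, at -38.7, -35.6, 43.9 and 30.0. Hepatocyte markers summed to 53641 to 72909 CPM in KO, 73207 to 119695 CPM in C247S KI and 86529 to 102954 CPM in WT livers, of which albumin, Alb, made up 38229, 66618 and 66438 CPM on average in KO, C247S KI and WT livers, and 4 of the 8 markers had a positive log2 difference in KO against WT. The sample titles carry numbers of 1176 to 1288 in KO, 3082 to 3154 in C247S KI and 3116 to 3121 in WT, and the labels do not say what they number.

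SREBP2 acts at short sterol regulatory elements together with the factors NF-Y, which binds CCAAT, and Sp1, which binds GC boxes, and the promoters are shown because the members moved together in the C247S KI livers. RefSeq promoters on GRCm38.p6, from 250 bases before to 50 after the start, were given for 8 of the 9 members, and Sqle is named only. The lines below give the 150 bases before the start in the direction of the gene for 6 of them, Cyp51 and Nsdhl as the members with the largest C247S KI differences among these 8, Hsd17b7 and Dhcr7 as members whose C247S KI livers lay wholly above the WT livers, Tm7sf2 as the member that was also higher in KO, and Sc5d as the member with the smallest C247S KI difference. They lie at chr5:4104698-4104847 (minus strand), chrX:72918371-72918520 (plus), chr1:169969206-169969355 (minus), chr7:143830064-143830213 (plus), chr19:6067851-6068000 (minus) and chr9:42264301-42264450 (minus). Capitals mark whole matches on either strand to CCAAT, to the GC box GGGCGG, to the E-box CACGTG and to TCACCTCA, a spelling close to the sterol element that was added after the promoters had been read.
Cyp51: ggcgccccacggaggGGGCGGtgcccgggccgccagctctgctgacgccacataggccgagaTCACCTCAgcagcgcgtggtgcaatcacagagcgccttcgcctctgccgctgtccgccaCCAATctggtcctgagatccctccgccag
Nsdhl: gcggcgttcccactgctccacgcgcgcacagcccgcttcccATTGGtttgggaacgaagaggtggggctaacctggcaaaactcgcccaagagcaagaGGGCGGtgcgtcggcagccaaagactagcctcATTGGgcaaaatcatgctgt
Hsd17b7: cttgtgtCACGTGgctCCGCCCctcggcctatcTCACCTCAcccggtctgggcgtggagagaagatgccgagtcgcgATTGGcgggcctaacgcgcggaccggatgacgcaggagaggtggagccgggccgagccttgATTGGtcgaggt
Dhcr7: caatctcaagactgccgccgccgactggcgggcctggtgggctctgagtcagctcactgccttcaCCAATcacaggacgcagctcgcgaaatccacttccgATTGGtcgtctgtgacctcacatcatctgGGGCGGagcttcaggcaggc
Tm7sf2: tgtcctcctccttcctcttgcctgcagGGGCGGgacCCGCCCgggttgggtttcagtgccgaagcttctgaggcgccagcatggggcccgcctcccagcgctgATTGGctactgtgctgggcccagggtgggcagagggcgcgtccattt
Sc5d: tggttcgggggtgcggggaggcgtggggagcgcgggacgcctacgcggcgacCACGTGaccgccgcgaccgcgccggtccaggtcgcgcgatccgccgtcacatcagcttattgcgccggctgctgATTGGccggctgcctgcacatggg

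Within the 300-base promoters, CCAAT was found in 8 of 8 members, against 37.4% of all 32851 RefSeq promoters of that length. GGGCGG was likewise found in 8 of 8 members, against 35.7% of all promoters. The classical sterol element TCACNCCAC and its core CACNCCAC were found in 0 of 8 members, against 1.24% and 6.24% of all promoters, and with 1 mismatch the core was in 7 of 8, against 62.2%. TCACCTCA was found in Cyp51, from -88 to -81, and in Hsd17b7, from -117 to -110, against 1.17% of all promoters, and CACGTG in Hsd17b7 and Sc5d, against 7.15%. Of 7 genes of the acetyl-CoA to squalene arm with a promoter entry, 6 held CCAAT and 5 the GC box. TCACNCCAC was found in 1 of these 7, its core in 2 and the core with 1 mismatch in 5. CACGTG and TCACCTCA were found in 0 of them. A gene of that arm was counted when any of its promoters held the motif, whereas 1 promoter was taken per member. All motifs were searched on both strands, the core lies within the 9-letter element, and no 2 matches to the other motifs overlapped in these 8 promoters. A match describes these letters only. The 5′ end of the transcript that held most of a gene's counts lay at -588 bases from the RefSeq start in Dhcr7. It lay at -214 bases in Msmo1, at 100 in Sc5d and at -49 to 36 in the others. The windows of Dhcr7, Msmo1 and Sc5d may therefore not be the promoters in use here. All matches in Dhcr7 and Msmo1 lie after that 5′ end. In Cyp51, with that end at -49, the CCAAT at -29 to -25 also lies after it. In Hsd17b7, with that end at -36, so does the CCAAT at -12 to -8.

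**Figure D1:**
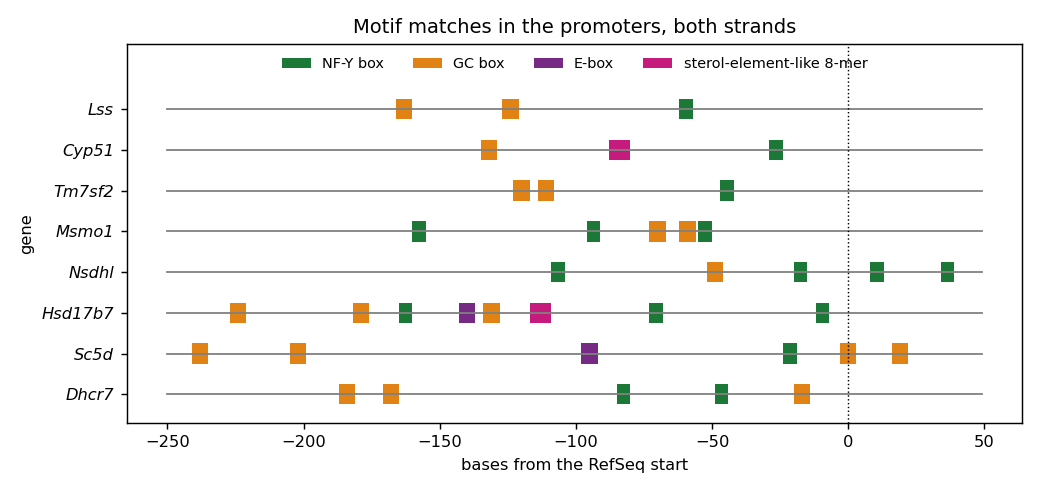
Motif matches along the promoters of 8 post-squalene genes, with the distance from the RefSeq start in bases on the x axis and 1 gene per line. Green blocks are NF-Y boxes (CCAAT), orange blocks GC boxes, purple blocks E-boxes and pink blocks the 8-letter spelling found in Cyp51 and Hsd17b7. Every gene has at least 1 orange block and at least 1 green block upstream of the RefSeq start, and Nsdhl also has green blocks after it.

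The first pair of enzymes closes the ring system. Sqle (ENSMUSG00000022351, chr15:59315077-59331192, plus strand) is squalene monooxygenase, which adds the epoxide to squalene and is a rate-limiting step of the arm. Sqle stood at 3.93, 7.77, 8.58, 8.81 and 13.6 CPM in KO livers 1 to 5, 118, 76.2, 113, 30.3 and 92 CPM in C247S KI livers 1 to 5, and 9.06, 23.4, 7.91, 9.64 and 15.9 CPM in WT livers 1 to 5. All 5 C247S KI livers lay above all WT livers, and C247S KI 4 was the lowest of them, while 4 of the 5 KO livers were at or below 8.81 CPM. Sqle averaged 8.54 ± 3.45 CPM in KO, 85.9 ± 35.3 CPM in C247S KI and 13.2 ± 6.48 CPM in WT livers (SD, n = 5 each). The log2 difference was -0.63 (SE 0.37, edgeR adjusted p = 0.327) in KO against WT, which did not pass. It was 2.70 (SE 0.38) in C247S KI against WT and -3.33 (SE 0.39) in KO against C247S KI, on both counts the member farthest from 0.

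Lss (ENSMUSG00000033105, chr10:76531588-76557138, plus strand) is lanosterol synthase, which folds the epoxide into lanosterol. Lss stood at 18.9, 16.8, 16.4, 16.1 and 24 CPM in KO livers 1 to 5, 82.5, 44.6, 49.6, 27 and 54.3 CPM in C247S KI livers 1 to 5, and 20.2, 33.9, 16.6, 19.1 and 24.5 CPM in WT livers 1 to 5. In 4 of the 5 C247S KI livers it was above every WT liver, and C247S KI 4 lay below WT 2. KO livers overlapped with WT livers and lay below every C247S KI liver. The log2 difference was -0.31 (SE 0.24, edgeR adjusted p = 0.470) in KO against WT, 1.17 (SE 0.24) in C247S KI against WT and -1.49 (SE 0.24) in KO against C247S KI. A coding transcript held 75.4% of the counts of the gene over all libraries and a retained-intron transcript held 16.7%. The share of the coding transcript was 66.8 ± 8.35% in KO, 76.9 ± 4.85% in C247S KI and 79.6 ± 3.38% in WT livers (SD, n = 5 each), a description with no test. Exons of a Rik gene on the opposite strand cover 381 of the exonic bases of Lss (3.53%).

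Next, Cyp51 and Tm7sf2 act in turn on lanosterol. Cyp51 (ENSMUSG00000001467, chr5:4081145-4104746, minus strand) is lanosterol demethylase, the cytochrome P450 of the arm, which removes the methyl group where rings C and D meet. Cyp51 stood at 28.7, 51.9, 42, 45.2 and 57.6 CPM in KO livers 1 to 5, 199, 133, 191, 68.8 and 172 CPM in C247S KI livers 1 to 5, and 36.8, 79.8, 43.4, 43.4 and 42.1 CPM in WT livers 1 to 5. Except for C247S KI 4, which lay below WT 2, the C247S KI livers were above every WT liver. KO 1 lay below every WT liver, and the other KO livers lay within the WT range. It averaged 45.1 ± 11 CPM in KO, 153 ± 53.4 CPM in C247S KI and 49.1 ± 17.4 CPM in WT livers (SD, n = 5 each). The log2 difference was -0.12 (SE 0.27, edgeR adjusted p = 0.820) in KO against WT, and it turned to 0.01 without KO 1 and to 0.13 without WT 2. In C247S KI against WT the difference was 1.64 (SE 0.27), and in KO against C247S KI -1.76 (SE 0.27). Exons of Akap9 on the opposite strand cover 166 of its exonic bases (3.76%), and the labels do not say whether strand was used.

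Tm7sf2 (ENSMUSG00000024799, chr19:6062821-6068373, minus strand) is a sterol reductase that acts on the double bond left by Cyp51, a step it shares with the lamin B receptor Lbr. Tm7sf2 stood at 69.2, 119.8, 80.2, 109 and 104 CPM in KO livers 1 to 5, 126, 113, 134, 119.9 and 93.7 CPM in C247S KI livers 1 to 5, and 76.4, 71.9, 48.2, 56.5 and 50.8 CPM in WT livers 1 to 5. All 5 C247S KI livers and 4 of the 5 KO livers were above every WT liver, and KO 1 lay below WT 1 and WT 2. It averaged 96.4 ± 21 CPM in KO, 117 ± 15.4 CPM in C247S KI and 60.7 ± 12.7 CPM in WT livers (SD, n = 5 each). Against WT it rose in KO by 0.67 on the log2 scale (SE 0.17, edgeR adjusted p = 0.0236). That call was lost without KO 2, KO 4, KO 5, WT 3 or WT 4, with adjusted p of 0.0518 to 0.0637, and with the clock index below as a covariate, where the difference was 0.43. In C247S KI against WT the difference was 0.95 (SE 0.17) and in KO against C247S KI -0.28 (SE 0.16), the smallest of the 9. Vps51, the same-strand neighbour, covers 532 of the 4403 exonic bases of Tm7sf2 but 1 of the 1471 bases of the transcript that held 94.3% of its counts, and Vps51 itself had a log2 difference of 0.18 in KO against WT (edgeR adjusted p = 0.282).

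Msmo1, Nsdhl and Hsd17b7 work as a cycle that strips a pair of methyl groups from the A ring. Msmo1 (ENSMUSG00000031604, chr8:64718139-64733792, minus strand) is the methylsterol monooxygenase that opens the cycle. Msmo1 stood at 42.2, 45.1, 40.7, 48.7 and 76.2 CPM in KO livers 1 to 5, 192, 139, 223, 56.6 and 145 CPM in C247S KI livers 1 to 5, and 71, 93, 51.8, 61 and 47.8 CPM in WT livers 1 to 5. In 4 C247S KI livers it exceeded every WT liver, whereas C247S KI 4 lay below WT 1, WT 2 and WT 4. KO 5 was the highest KO liver by a wide margin and lay above C247S KI 4. Its log2 difference was -0.36 (SE 0.28, edgeR adjusted p = 0.482) in KO against WT, 1.22 (SE 0.29) in C247S KI against WT and -1.58 (SE 0.29) in KO against C247S KI. Of its counts, 82.2% lay on the leading transcript and 15.5% on the next.

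Nsdhl (ENSMUSG00000031349, chrX:72918557-72958514, plus strand) is the sterol dehydrogenase that removes the oxidised carbon. Nsdhl stood at 15.4, 33.6, 21.3, 28.3 and 31.4 CPM in KO livers 1 to 5, 85.7, 60.4, 67.1, 33.9 and 66.7 CPM in C247S KI livers 1 to 5, and 16.8, 28.3, 18.5, 22.6 and 20.7 CPM in WT livers 1 to 5. All 5 C247S KI livers were above all WT livers and all KO livers, with C247S KI 4 closest to them. KO 2 and KO 5 were above the highest WT liver, and KO 4 was level with it. It averaged 26 ± 7.51 CPM in KO, 62.8 ± 18.7 CPM in C247S KI and 21.4 ± 4.42 CPM in WT livers (SD, n = 5 each). On the log2 scale the difference was 0.28 (SE 0.23, edgeR adjusted p = 0.499) in KO against WT, 1.55 (SE 0.23) in C247S KI against WT and -1.27 (SE 0.23) in KO against C247S KI. With Tm7sf2 it was 1 of the 2 members with a higher mean in KO than in WT livers.

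Hsd17b7 (ENSMUSG00000026675, chr1:169949535-169969241, minus strand) reduces the ketone that Nsdhl leaves and closes the cycle. Hsd17b7 stood at 25.6, 19.3, 28.9, 25.8 and 29.3 CPM in KO livers 1 to 5, 98.2, 57.8, 52, 52.5 and 72.7 CPM in C247S KI livers 1 to 5, and 28.4, 40.2, 26, 32.7 and 26.1 CPM in WT livers 1 to 5. All 5 C247S KI livers were above all WT and all KO livers, and here C247S KI 4 was not the lowest of them. KO 1, KO 2 and KO 4 lay below every WT liver, while KO 3 and KO 5 lay within the WT range. Its log2 difference was -0.25 (SE 0.18, edgeR adjusted p = 0.429) in KO against WT, 1.12 (SE 0.18) in C247S KI against WT and -1.37 (SE 0.18) in KO against C247S KI. Its promoter, shown above, was the member promoter that held all 4 marked motifs.

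Last, Sc5d and Dhcr7 act on the B ring. Sc5d (ENSMUSG00000032018, chr9:42251595-42264256, minus strand) is lathosterol oxidase, which makes the last precursor of cholesterol, the sterol that skin turns into vitamin D. Sc5d stood at 145, 183, 169, 167 and 187 CPM in KO livers 1 to 5, 480.1, 314, 252, 217 and 345 CPM in C247S KI livers 1 to 5, and 285, 328, 202, 268 and 209 CPM in WT livers 1 to 5. All 5 KO livers lay below all WT livers and all C247S KI livers. C247S KI 1 and C247S KI 5 lay above every WT liver, and the other C247S KI livers lay within the WT range. It averaged 170.3 ± 16.6 CPM in KO, 322 ± 102 CPM in C247S KI and 258 ± 53.3 CPM in WT livers (SD, n = 5 each). On the log2 scale the difference was -0.60 (SE 0.19, edgeR adjusted p = 0.0631) in KO against WT, which missed the threshold. It was 0.32 (SE 0.19) in C247S KI against WT, the smallest of the 9, and -0.92 (SE 0.19) in KO against C247S KI. Sc5d was the member whose counts were split between 2 transcripts, of 1677 bases with 50.9% and of 4787 bases with 49.1%. The share of the shorter one was 42.1 ± 3.07% in KO, 54.2 ± 3.0% in C247S KI and 51.6 ± 5.85% in WT livers (SD, n = 5 each), with the KO livers at 38.8 to 46.3%, the C247S KI livers at 51 to 58.3% and the WT livers at 46 to 58.4%. These shares are estimates that divide reads common to both transcripts, and their difference was not tested.

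Dhcr7 (ENSMUSG00000058454, chr7:143823145-143848410, plus strand) reduces that precursor to cholesterol. Dhcr7 stood at 28.6, 29.3, 27.2, 36 and 42.2 CPM in KO livers 1 to 5, 147, 98.6, 139, 65.5 and 93.5 CPM in C247S KI livers 1 to 5, and 44, 64.2, 52.8, 50.05 and 47.5 CPM in WT livers 1 to 5. The 3 groups did not overlap: every KO liver was below every WT liver, and every C247S KI liver was above. It averaged 32.7 ± 6.32 CPM in KO, 109 ± 34 CPM in C247S KI and 51.7 ± 7.70 CPM in WT livers (SD, n = 5 each). Dhcr7 fell in KO livers relative to WT, with a log2 difference of -0.66 (SE 0.19, edgeR adjusted p = 0.0467). This call lay close to the threshold and was lost without KO 1, KO 2, KO 3, KO 4, C247S KI 2, WT 2, WT 3, WT 4 or WT 5 taken 1 at a time, with adjusted p of 0.0588 to 0.119, and also with no count filter (adjusted p = 0.0509) and with the clock index as a covariate. In C247S KI against WT the difference was 1.07 (SE 0.19) and in KO against C247S KI -1.74 (SE 0.20).

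**Figure D2:**
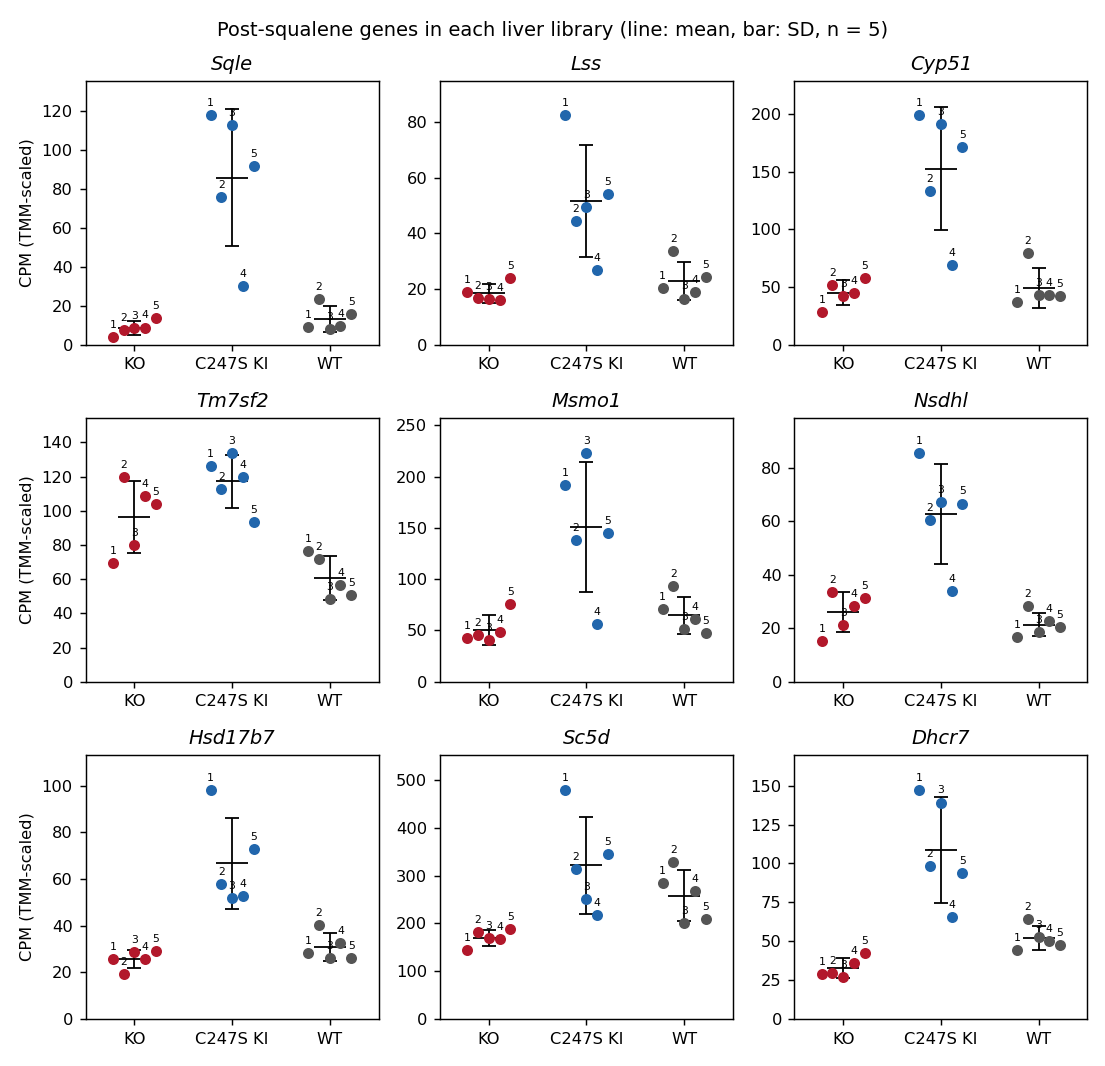
CPM of the 9 post-squalene genes in each liver library, in 1 panel per gene in pathway order, with KO (red), C247S KI (blue) and WT (grey) from left to right and the library number beside each point. Lines are group means and bars the SD over 5 libraries; in Dhcr7 the 3 groups do not overlap, and C247S KI 4 is the lowest C247S KI library in 7 of the 9 panels.

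As a description, 6 of the 9 genes were called higher in C247S KI against WT by edgeR and 0 lower, where 0.0862% of all tested genes were called in either direction. The 6 were Sqle, Cyp51, Tm7sf2, Nsdhl, Hsd17b7 and Dhcr7. In 5 of the 9 the C247S KI livers lay wholly above the WT livers, against 0.726% of all genes, and 9 of 9 log2 differences were positive with a median of 1.17, against 50.4% and a median of 0.00 over all genes. The earlier results that led to the list came from this comparison, so nothing is read from these counts. Leaving out C247S KI 1, C247S KI 5, WT 1, WT 3, WT 4 or WT 5 brought the count to 3, 3, 3, 1, 2 and 2, and leaving out C247S KI 4 brought it to 8. Without WT 1, C247S KI 3 and C247S KI 5 together, a fit that was chosen after seeing the data, 1 member was called, Tm7sf2, while all 9 log2 differences stayed positive, at 0.43 to 2.39. Without KO 5, C247S KI 5, WT 1 and WT 4, the libraries farthest out on the second principal component and likewise chosen after seeing the data, 0 of the 9 were called and all 9 differences were positive, at 0.37 to 2.43.

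In KO against WT, 2 of the 9 were called, Tm7sf2 higher and Dhcr7 lower, where 6.75% of all genes were called in either direction. In 2 of the 9, Sc5d and Dhcr7, the KO livers lay wholly below the WT livers, against 5.09% of all genes. The median log2 difference of the 9 was -0.31, with 2 of 9 positive, against a median of -0.01 and 48.7% positive over all genes. Sc5d passed with DESeq2 (adjusted p = 0.0245), in the fit of these 2 groups alone (edgeR adjusted p = 0.0190) and without C247S KI 1 or C247S KI 4. The count of 2 became 0 without KO 2, KO 4, WT 3 or WT 4, and 1 without KO 1, KO 3, KO 5, C247S KI 2, WT 2 or WT 5. Without KO 5, C247S KI 5, WT 1 and WT 4 it was 0, with Tm7sf2 at 0.74 (edgeR adjusted p = 0.0537) and Dhcr7 at -0.85 (edgeR adjusted p = 0.0568).

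In KO against C247S KI, 8 of the 9 were called lower and 0 higher, where 10.3% of all genes were called in either direction, and the exception was Tm7sf2. In 7 of the 9 the KO livers lay wholly below the C247S KI livers, against 4.94% of all genes. The overlaps were in Msmo1, through KO 5 and C247S KI 4, and in Tm7sf2. The median log2 difference was -1.49, with 0 of 9 positive, against a median of -0.03 and 46.7% positive over all genes. The C247S KI livers that led to the list enter this comparison too, so it is a description. The 3 comparisons share their libraries, each group entering 2 of them, and are set side by side for that reason.

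**Figure D3:**
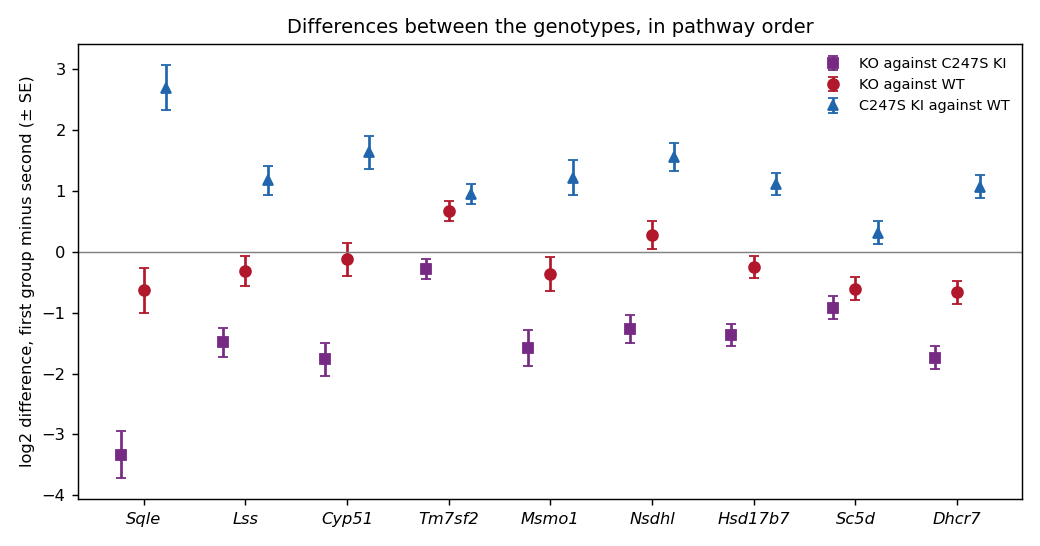
Log2 difference of each post-squalene gene with its standard error (y axis), in pathway order from left to right, for KO against C247S KI (purple squares), KO against WT (red circles) and C247S KI against WT (blue triangles). All 9 triangles are above 0, from 0.32 to 2.70, all 9 squares are below 0, and the circles lie within -0.66 to 0.67.

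Levels can be set beside each other between genes only per length, as TPM, which divide counts by the annotated transcript length before scaling to the library. In WT livers Sc5d was the highest member at 168 ± 38.6 TPM (SD, n = 5), and its lowest WT liver was above the highest of any other member. Tm7sf2 (66.9 ± 13.8 TPM) and Msmo1 (55.5 ± 17.9 TPM) followed and overlapped with each other. Then came Dhcr7 (33.9 ± 6.71 TPM) and Cyp51 (20.3 ± 8.55 TPM), which overlapped. Nsdhl (15.8 ± 4.33 TPM), Hsd17b7 (10.7 ± 2.71 TPM), Lss (8.75 ± 3.38 TPM) and Sqle (7.83 ± 4.44 TPM) stood lowest, each overlapping with the next. In C247S KI livers the mean of Sqle lay between those of Cyp51 (62.9 ± 26.3 TPM) and Nsdhl (47 ± 18.4 TPM), with ranges that overlap. In KO livers Sqle (4.43 ± 1.88 TPM) and Lss (6.45 ± 1.74 TPM) were again the lowest, and Tm7sf2 (95.5 ± 14.6 TPM) was level with Sc5d (91.9 ± 9.95 TPM). Sqle, at the entry to the arm, had the lowest mean TPM in KO and WT livers.

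The libraries of a group were ordered much alike across the members. C247S KI 1 was the highest C247S KI library in 7 of the 9 genes and C247S KI 4 the lowest in 7. WT 2 was the highest WT library in 8 and KO 5 the highest KO library in 7, whereas KO 1 was the lowest KO library in 5 and WT 3 the lowest WT library in 5. As a description over 15 libraries, after the mean of each group was taken away, Pearson's r of log2 CPM had a median of 0.76 over the 28 pairs that leave out Tm7sf2, with a range of 0.41 to 0.93. For the 8 pairs with Tm7sf2 the median was 0.36, with a range of -0.02 to 0.46. The closest pair within groups was Cyp51 with Nsdhl. The members share each library, so that its depth and RNA are common to all points.

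Of the 5 other listed genes of the squalene to cholesterol steps, 4 were tested. Among them, 0 were called in C247S KI against WT by edgeR (1 at an unadjusted p under 0.05, 0 with DESeq2 and 0 with voom), and 4 of 4 had a positive log2 difference with a median of 0.24. Ebp, the isomerase that works between the methyl cycle and Sc5d, averaged 182 ± 26.9 CPM in KO, 199 ± 42.7 CPM in C247S KI and 183 ± 27.6 CPM in WT livers (SD, n = 5 each), so that the groups overlapped. Its log2 difference was -0.01 (SE 0.16, edgeR adjusted p = 0.972) in KO against WT. Relative to C247S KI, 2 of the 4 were called lower in KO livers, among them Lbr, which can stand in for Tm7sf2, with a log2 difference of -0.58 (SE 0.17). In KO against WT 0 of the 4 passed with edgeR (1 at an unadjusted p under 0.05, 0 with DESeq2 and 0 with voom).

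Several enzymes of the arm take electrons from cytochrome b5 or from the P450 reductase Por. Of 5 such donors and partners, 1 fell in KO against WT, Cyb5b, the mitochondrial outer membrane form of the cytochrome, with a log2 difference of -0.52 (SE 0.13, 237 CPM in KO and 340.2 CPM in WT livers, edgeR adjusted p = 0.0275). Cyb5a, the microsomal form, rose in KO against C247S KI by 0.52 on the log2 scale (SE 0.16, edgeR adjusted p = 0.0455), and in KO against WT its difference was 0.09. In C247S KI against WT 0 of 5 passed with edgeR (2 at an unadjusted p under 0.05, 0 with DESeq2 and 0 with voom). Of the 5 donors, 2 had a positive log2 difference in each comparison.

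Genes from acetyl-CoA to squalene, the arm that feeds Sqle, were highest in C247S KI livers too. Between C247S KI and WT 0 of 10 were called with edgeR (9 at an unadjusted p under 0.05, 5 with DESeq2 and 0 with voom), although 10 of 10 were positive with a median log2 difference of 1.27. In KO against WT 0 of 10 were called with edgeR (5 at an unadjusted p under 0.05, 1 with DESeq2 and 0 with voom), 1 of 10 was positive and the median was -0.46. In KO against C247S KI 8 of 10 were called lower, against 10.3% of all genes in either direction, with a median of -1.77. The high C247S KI levels of cholesterol genes were known when this list was made, so this too is a description. Fdft1, the squalene synthase, whose product Sqle takes up, averaged 13.2 ± 4.37 CPM in KO, 88.8 ± 35.9 CPM in C247S KI and 26.3 ± 14.5 CPM in WT livers (SD, n = 5 each). Its log2 difference was -2.75 (SE 0.38) in KO against C247S KI. Hmgcs1, Fdps, Pmvk, Idi1 and Acat2 were lower there as well, with log2 differences of -2.17, -2.00, -1.67, -2.10 and -1.12.

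**Figure D4:**
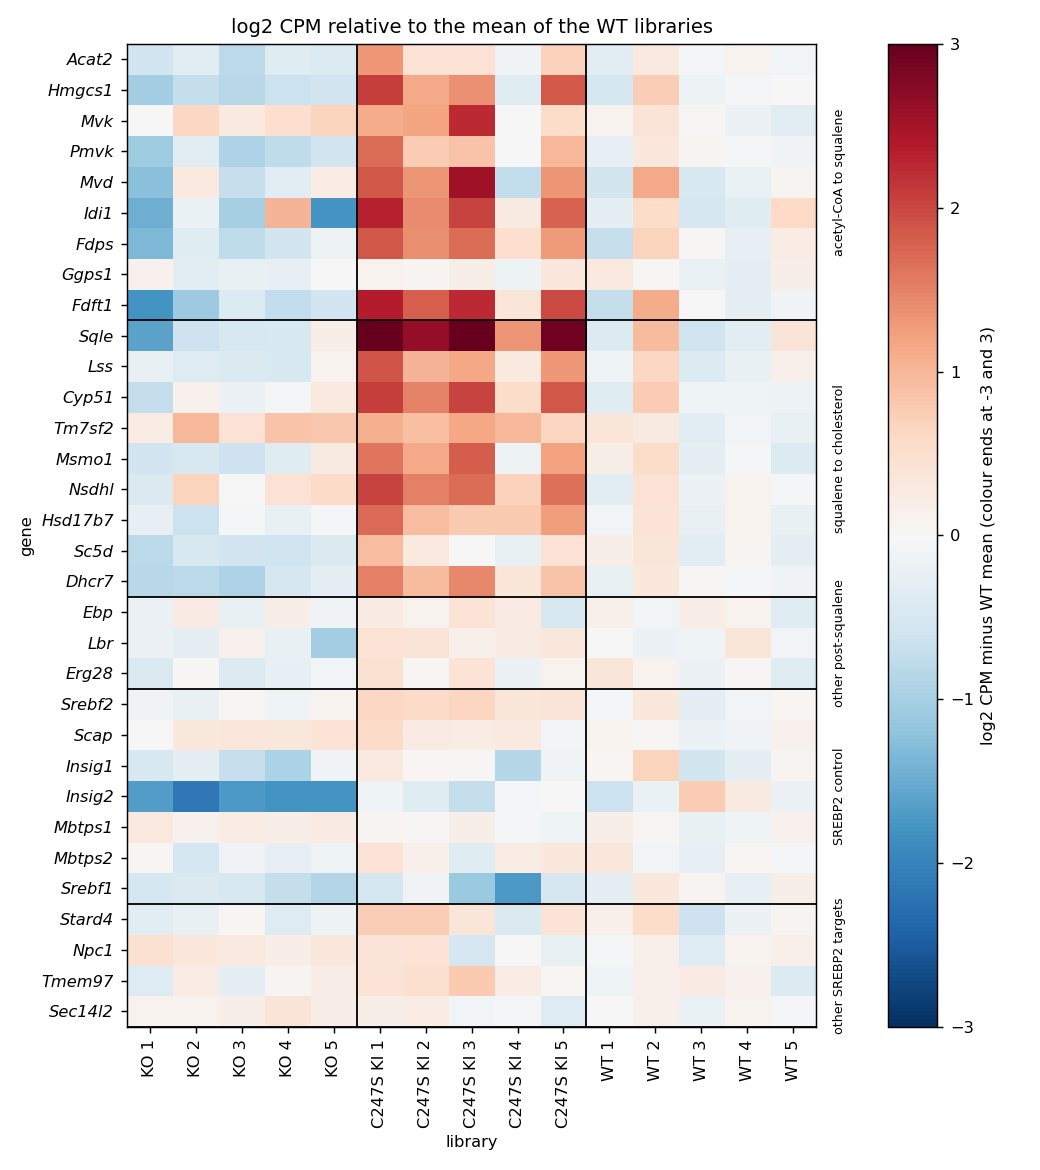
Log2 CPM of tested pathway genes in each library relative to the mean of the WT libraries (colour, red higher and blue lower, ending at -3 and 3), with libraries in columns (KO, C247S KI, WT) and genes in rows by list. The C247S KI columns are mostly red through both arms of synthesis, Ggps1 and Sc5d being pale in several, C247S KI 4 is paler than the others for most genes, Ebp is pale in all 15 libraries, and Insig2 is blue in the 5 KO libraries.

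SREBP2 and the proteins that hold or release it were also measured. Srebf2, which encodes SREBP2 and is itself one of its targets, averaged 43.8 ± 4.17 CPM in KO, 65.9 ± 5.98 CPM in C247S KI and 46.2 ± 7.09 CPM in WT livers (SD, n = 5 each). All C247S KI livers lay above all KO and WT livers for Srebf2, with a log2 difference of 0.51 (SE 0.11) against WT that did not pass, and KO livers were lower than C247S KI livers with a log2 difference of -0.59 (SE 0.11). Insig2, which retains the SREBP escort in the endoplasmic reticulum, averaged 70.7 ± 8.46 CPM in KO, 213 ± 40.5 CPM in C247S KI and 263 ± 101 CPM in WT livers. Insig2 fell in KO with a log2 difference of -1.89 against WT (SE 0.22, edgeR adjusted p = 0.000239) and of -1.59 against C247S KI (SE 0.22, edgeR adjusted p = 0.000297), with no overlap in either. Insig1, which does the same and is an SREBP target, averaged 119 ± 26.9 CPM in KO, 158 ± 41 CPM in C247S KI and 172 ± 56.6 CPM in WT livers and passed in none of the 3 comparisons. Of the 7 genes of this control list, 0 were called in C247S KI against WT with edgeR (3 at an unadjusted p under 0.05, 1 with DESeq2 and 0 with voom), 1 fell in KO against WT and 2 fell in KO against C247S KI.

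The SREBP2 targets outside synthesis gave mixed signs, with 4 of 6 positive in C247S KI against WT. In KO against C247S KI 1 of 6 passed, as lower. Between C247S KI and WT 0 of 6 passed with edgeR (2 at an unadjusted p under 0.05, 0 with DESeq2 and 0 with voom), and so in KO against WT (2, 0 and 0).

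Ubiquitin ligases and partners that degrade Sqle and related proteins were tested as 7 genes, and 0 passed with edgeR, DESeq2 or voom in any of the 3 comparisons (0 at an unadjusted p under 0.05 in C247S KI against WT, 1 in KO against WT and 1 in KO against C247S KI). The lowest p belonged to Rnf145, a sterol-sensing ligase, at 12.7 ± 1.79 CPM in KO, 17.1 ± 4.10 CPM in C247S KI and 17.4 ± 1.80 CPM in WT livers (edgeR adjusted p = 0.0769 in KO against WT). Of 11 genes for the esterification, export and bile acid use of cholesterol, 1 rose in KO against WT, Cyp7b1, an oxysterol hydroxylase of bile acid synthesis, by 2.15 on the log2 scale (SE 0.44, 298 CPM in KO and 67.2 CPM in WT livers, edgeR adjusted p = 0.00817). In KO against C247S KI 1 rose, the sterol exporter Abcg8, by 0.58 on the log2 scale (SE 0.16, edgeR adjusted p = 0.0261), and in C247S KI against WT 0 of 11 passed with edgeR (2 at an unadjusted p under 0.05, 0 with DESeq2 and 0 with voom).

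The genes most like the members were ranked by Pearson's r of their log2 CPM with the mean scaled level of the 9, over 15 libraries and 13907 other genes, as a description. Among the first were Fdps (0.95), Fdft1 (0.94), Hmgcs1 (0.93), Srebf2 (0.92), Pmvk (0.92), Rdh11 (0.92), Pdzk1ip1 (0.89), Acat2 (0.89) and Fras1 (0.88). After the mean of each group was taken away, Rdh11, a retinol dehydrogenase, came first with 0.92, and Fdps had 0.83, Hmgcs1 0.88, Srebf2 0.67 and Fras1 0.59. Ebp had 0.19 over the 15 libraries and 0.01 within groups. The order over 15 libraries contains the differences between groups, and 6 of these 9 genes belong to the pathway lists above.

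Clock genes differed between the groups and between libraries of a group. A clock index, the mean log2 CPM of Dbp, Tef, Per3, Nr1d1 and Ciart less that of Arntl, Clock, Npas2 and Cry1, was 4.2, 4.92, 4.97, 4.41 and 5.13 in KO livers 1 to 5, 3.38, 3.40, 3.33, 2.01 and 3.33 in C247S KI livers 1 to 5, and 3.66, 4.12, 2.74, 3.59 and 3.46 in WT livers 1 to 5. KO livers were above all others, and C247S KI 4 was the lowest of all. Npas2 averaged only 0.27 CPM in KO, 0.38 CPM in C247S KI and 0.44 CPM in WT livers. It did not pass the filter on low counts but enters the index. The mean scaled level of the 9 members was -1.10, -0.59, -0.81, -0.58 and -0.22 in KO, 1.79, 1.02, 1.28, 0.20 and 1.17 in C247S KI and -0.47, 0.21, -0.79, -0.48 and -0.63 in WT livers. In each group the library with the lowest clock index, KO 1, C247S KI 4 and WT 3, also had the lowest level of the members, and in KO and WT the library with the highest index, KO 5 and WT 2, had the highest level. Among the clock genes, Dbp rose in KO against WT by 1.09 on the log2 scale (SE 0.24, edgeR adjusted p = 0.0123) and Ciart by 0.67 (SE 0.17, edgeR adjusted p = 0.0245), the 2 of 11 that passed. In KO against C247S KI 7 of 11 passed, 4 higher and 3 lower, among them Arntl (-1.61), Clock (-0.51) and Cry1 (-1.02) as lower and Tef (0.39) as higher (log2 differences, edgeR adjusted p = 0.00275 to 0.0183). Over all genes, 6.75% were called in KO against WT and 10.3% in KO against C247S KI, in either direction. Between C247S KI and WT 0 of 11 passed with edgeR (1 at an unadjusted p under 0.05, 0 with DESeq2 and 0 with voom).

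With the clock index as a covariate, an alternative chosen after seeing the data, the log2 difference of Sqle in KO against WT was -2.02 (SE 0.33, edgeR adjusted p = 0.0126), that of Sc5d -1.17 (SE 0.21, adjusted p = 0.0226) and that of Msmo1 -1.35 (SE 0.29, adjusted p = 0.0458), so that these 3 passed. Dhcr7 stood at -1.12 (adjusted p = 0.0545) and Tm7sf2 at 0.43 (adjusted p = 0.425) and did not pass, and Nsdhl turned to -0.48 (adjusted p = 0.418). Between C247S KI and WT the differences were 0.51 for Sc5d to 3.14 for Sqle, and in KO against C247S KI -0.62 for Tm7sf2 to -5.17 for Sqle. The KO libraries and the others do not overlap in this index, so that genotype and index cannot be told apart between KO and WT or between KO and C247S KI. In both comparisons the differences with the covariate reach beyond index values that the groups share. The part of the index in the results was not tested.

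**Figure D5:**
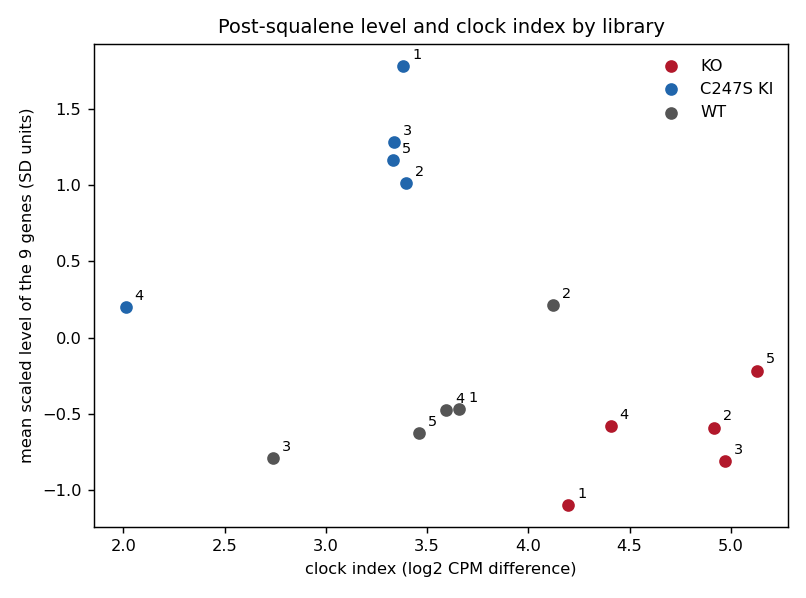
Mean scaled level of the 9 post-squalene genes (y axis, in SD units over the 15 libraries) against the clock index (x axis, a difference of mean log2 CPM), with 1 point per library and its number, for KO (red), C247S KI (blue) and WT (grey). The KO libraries lie to the right at 4.2 to 5.13, C247S KI 4 lies alone at 2.01, and in each group the leftmost library is also the lowest.

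Some markers of other liver cells differed between the groups as well, and the part of these cells in the results was not tested. In bulk tissue fewer cells of a type and less RNA per cell cannot be told apart. Cholangiocyte markers summed to 25.6 to 38.1 CPM in KO, 46.6 to 121 CPM in C247S KI and 35 to 53.4 CPM in WT livers, with 5 of 5 tested genes positive in C247S KI against WT and 0 called by edgeR (3 at an unadjusted p under 0.05, 0 with DESeq2 and 0 with voom), and with Spp1 (-1.48) and Sox9 (-1.04) lower in KO against C247S KI. Adipose markers summed to 8.72 to 13.1, 32.5 to 65 and 26.6 to 49.1 CPM in KO, C247S KI and WT livers. Of these, Fabp4 and Cfd, the 2 of 6 that were tested, fell in KO against WT with log2 differences of -1.40 and -2.54. Lep was at most 0, 0.0435 and 0.0517 CPM in KO, C247S KI and WT livers. Adipoq was at most 0.311 CPM, and averaged 0.12, 0.08 and 0.12 CPM in KO, C247S KI and WT livers. Kupffer cell markers, with 8 of 8 negative and 0 called by edgeR in C247S KI against WT (5 at an unadjusted p under 0.05, 0 with DESeq2 and 0 with voom), summed to 85.7 to 322, 65.6 to 171 and 131 to 361 CPM in the same order, and Marco had the lowest p (log2 difference -1.13 in C247S KI against WT). In KO against WT 0 of these 8 were called (2 at an unadjusted p under 0.05) and against C247S KI 0 (1 at an unadjusted p under 0.05), with 0 by DESeq2 and 0 by voom in both. The 8 markers had negative log2 differences in KO against WT too, with a median of -0.35, and positive ones in KO against C247S KI.

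Endothelial markers summed to 144 to 245 CPM in KO, 134 to 191 CPM in C247S KI and 113 to 292 CPM in WT livers. Stellate cell markers summed to 159 to 450.2 CPM in KO, 349.9 to 545 CPM in C247S KI and 489.9 to 565 CPM in WT livers, and lymphocyte markers to 2.39 to 4.82, 3.74 to 6.36 and 3.51 to 11.5 CPM in KO, C247S KI and WT livers. In KO against WT the endothelial markers Lyve1 (-1.41) and Pecam1 (-0.80), 2 of 7, the stellate marker Col3a1 (-1.18), 1 of 8, and the B cell marker Ms4a1 (-2.02), 1 of 4, passed with edgeR as lower, as did albumin, Alb (-0.80), 1 of 8 hepatocyte markers (adjusted p = 0.00347 to 0.0415 over these 5). Of the endothelial markers 4 of 7 had a positive log2 difference in KO against WT, with a median of 0.01.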

How the data were processed

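Total RNA of mouse liver was sequenced, and the authors deposited 1 table of estimated counts per transcript for 15 libraries, given as whole numbers. Per the submitters' processing notes, reads were trimmed with Trimmomatic 0.39 and quantified with kallisto 0.50.1, the build was mm10 and DESeq2 was used; the transcript set, the strand setting and the DESeq2 version are not given in the sources used here. Estimated counts divide reads shared by transcripts, so that shares between transcripts of a gene are less certain than gene sums.

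Of 115911 transcripts, 114331 (98.6%) matched GENCODE M21 on GRCm38 by identifier, and the other 1580 took 0.366 to 0.459% of each library. Counts were summed by gene symbol. Genes were kept with edgeR's filter by group (minimum count 10), scaled by TMM and tested with the quasi-likelihood test of edgeR 4.0.16 in R 4.3.3, with all 15 libraries in 1 fit and Benjamini-Hochberg adjustment over 13916 genes at 0.05. A standard error is the size of the log2 difference over the square root of F. CPM are TMM-scaled; on the log2 scale a prior count of 2 was added. The Txnip check used exact two-sided permutation. Promoters came from RefSeq on GRCm38.p6. The method was tested on simulated data.

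The 9 members and all lists were chosen with earlier results of these data known. The edgeR counts of each list stand beside 0.0862% of all genes called in C247S KI against WT. The shares were 6.75% in KO against WT and 10.3% in KO against C247S KI. Beside the members, the text names the called genes of each list, at most 6 by lowest p, or the gene of lowest p where none was called, with Srebf2, Insig1 and Ebp always named. A few genes that this rule names are not reported here, though they stay in the fits and in the counts of their lists. Between C247S KI and the other groups the members' values are a description. Alternatives were DESeq2 1.42.0, voom of limma 3.58.1, other scaling factors, other count filters, a replicate block, fits of 2 groups, and each library left out; a clock covariate, the loss of 3 libraries and the loss of 4 were added after seeing the data. Libraries of 1 group differed by more than counting noise in all 30 pairs, the lowest chi-square per degree of freedom being 22.8.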

Additional observations from a re-analysis of the deposited data

Results flagged for a closer look

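Among 27 groups of 5 libraries, 9 genes in 3 groups each, 2 held a library far from the other 4 by the gap of its value to the nearest, and chance alone flags about 1 in 20 groups. Cyp51 stood at 79.8 CPM in WT 2, with the next WT library at 43.4 CPM. Without WT 2 the log2 difference of Cyp51 in KO against WT was 0.13. Msmo1 stood at 76.2 CPM in KO 5, with the next KO library at 48.7 CPM. WT 2 and KO 5 were also the highest libraries of their groups for 8 and 7 of the 9 genes.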

How the results depend on the processing

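In C247S KI against WT, 6 of the 9 genes were called in the reported fit, 2 with a replicate block, 2 in the fit of those groups alone and 1 with WT 1, C247S KI 3 and C247S KI 5 left out together, and 0 without KO 5, C247S KI 5, WT 1 and WT 4; leaving out 1 library gave 1 (without WT 3) to 8 (without C247S KI 4). The other tools, scalings and filters gave 5 to 8. In KO against WT, 2 were called, 1 with no count filter, 1 with a replicate block (Dhcr7 being lost in both), 0 without KO 5, C247S KI 5, WT 1 and WT 4 and 0 to 3 with 1 library left out. In KO against C247S KI, 8 were called in every setting run. Directions turned in Nsdhl in KO against WT, at -0.48 with the clock covariate, and in Cyp51 in KO against WT, at -0.22 to 0.13 over libraries left out; the cause was not tested. The sterol element core was in 0 of 8 promoters and in 7 with 1 mismatch. Over all genes, C247S KI against WT gave 12 calls, 65 with DESeq2, 20 with no filter, 6 with the block, 6 in the fit of 2 groups, 27 with the clock covariate and 4 to 24 with 1 library left out. KO against WT gave 939, 1505 with DESeq2, 1542 without the 3 libraries, 102 with the clock covariate and 521 to 1259 with 1 library left out. KO against C247S KI gave 1427, 1900 with DESeq2, 70 with the clock covariate, and 784 (without KO 2) to 2272 (without C247S KI 3) with 1 library left out. Without the 4 libraries far out on the second component the 3 comparisons gave 9 (C247S KI against WT), 521 (KO against WT) and 729 (KO against C247S KI). Same-numbered libraries did not deviate together (r of -0.11 to 0.23 over 15 pairs, and 4 of 15 libraries matched their own number best), so the block shares only a number. The lowest count of a member in a library was 78, for Sqle.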
